A study of Mus musculus with 8 samples.

Results

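The Dlk1-Dio3 region of mouse chromosome 12 was followed in primary articular chondrocytes, the cells of joint cartilage, after forced expression of the zinc transporter ZIP8. Members were all genes that lie from Dlk1 to Dio3 inclusive in a RefSeq gene table (assembly GRCm38.p6) and that had a probe set naming 1 gene. Of 103 table genes in the region, 55 were measured this way, among 22180 genes on the array. These were 43 of 61 microRNA genes, 6 of 19 small nucleolar RNA genes, 4 of 16 long noncoding RNA genes and 2 of 3 protein-coding genes, and none of 4 pseudogenes. Each gene was read from its probe set with the highest mean over all 8 arrays. The region was selected on the lower levels of its transcripts in the Ad-Zip8 arrays of these data, so the values below describe it and do not test it.

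Cells came from the femoral condyles and tibial plateaus of 5-day-old wild-type ICR mice and grew as a monolayer. The control group was infected with a null adenovirus (Ad-null, 4 arrays) and the other with an adenovirus expressing ZIP8 (Ad-Zip8, 4 arrays). Total RNA was taken 24 h after infection. Replicates are labelled as biological, without saying how many mice gave each culture; the p-values therefore cover the spread among these 8 samples alone. Both groups carry an adenovirus, and no uninfected group was used here.

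An imprinted region is one in which a gene is transcribed mainly from the chromosome inherited from 1 parent. In the Dlk1-Dio3 region the protein-coding genes Dlk1, Rtl1 and Dio3 are known to be transcribed from the paternal chromosome. The noncoding genes Meg3, Rian and Mirg, with the microRNAs and small nucleolar RNAs that lie in or beside them, are transcribed from the maternal chromosome in the same direction and are often treated as 1 long transcription unit. MicroRNAs are cut from hairpins and pair with messenger RNAs through a seed at bases 2 to 8, and box C/D small nucleolar RNAs are cut from introns. A probe set named for a microRNA gene does not tell the primary transcript, the hairpin and the mature arms apart. The RNA was labelled with a whole-transcript kit, and how far mature arms were labelled was not tested. The levels are therefore not read as levels of mature microRNAs.

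The hairpin of Mir300, the member with the largest difference, is shown as an example of where the mature arms lie in such a gene. It lies at chr12:109724313-109724391 on the plus strand (GRCm38.p6, sequence from RefSeq), and capitals mark the mature 5p and 3p arms.
Mir300 hairpin: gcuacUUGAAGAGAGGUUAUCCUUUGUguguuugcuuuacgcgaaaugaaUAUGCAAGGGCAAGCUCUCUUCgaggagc

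RefSeq held mature sequences for all 43 microRNA members, 81 arms in all with 73 different seeds. Only 12 members shared a seed with another member, through 8 seeds, and no shared seed occurred in more than 2 microRNA genes of the RefSeq table. For all 8 shared seeds both genes fell in Ad-Zip8 cells, beside 36 of all 43 microRNA members (83.7%). The pairs are not independent, since genes such as Mir379 recur and the hairpins of Mir3070a and Mir3070b are 94.4% identical. As examples, 4 of these seeds are shown, each in its pair of arms, with the seed in capitals.
miR-376b-5p: gUGGAUAUuccuucuaugguua
miR-376c-5p: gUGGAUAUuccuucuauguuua
miR-453: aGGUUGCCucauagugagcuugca
miR-496a-5p: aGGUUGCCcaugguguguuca
miR-379-5p: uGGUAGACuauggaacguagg
miR-1193-5p: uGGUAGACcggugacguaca
miR-379-3p: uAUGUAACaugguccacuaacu
miR-411-3p: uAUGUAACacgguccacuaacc

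Arms of 4 further members with large differences carry seeds that no other member has.
miR-300-3p: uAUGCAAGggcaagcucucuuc
miR-493-3p: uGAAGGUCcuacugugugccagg
miR-382-5p: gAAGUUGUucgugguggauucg
miR-329-3p: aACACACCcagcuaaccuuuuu

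Most measured transcripts of the region were lower in Ad-Zip8 cells from Dlk1 through Mir409, the last microRNA gene measured. The 3 measured genes at the Dio3 end did not pass the test. Of the 55 members, 43 (78.2%) fell at an adjusted p under 0.05 (limma, Benjamini-Hochberg over all genes), against 5.12% of all genes tested. None rose, against 5.48% of all genes, and no member had an unadjusted p under 0.05 in the upward direction. The members' median difference was -0.88 on the log2 scale (Ad-Zip8 minus Ad-null), a 1.84-fold lower level, against -0.02 over all genes. In 41 members every Ad-Zip8 value lay below every Ad-null value, which held for 9.74% of all genes. No member had all its Ad-Zip8 values above all its Ad-null values, against 7.89% of all genes. Because the same contrast chose the region, these counts are given as a description.

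Many of the array's larger decreases lay in the region. Of 22180 genes, 79 (0.356%) passed the test with a level at least 2-fold lower, and 24 of those 79 (30.4%) were members of the region. Of the 42 microRNA genes that fell anywhere on the array, 36 (85.7%) were members. The 6 that fell elsewhere were Mir501, Mir708, Mir669h, Mir1898, Mir194-1 and Mir574, with differences from -0.85 to -0.32.

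Slc39a8, the gene that encodes ZIP8, was 30.4-fold higher in the Ad-Zip8 group (adjusted p = 3.49e-09), the direction its label gives. Arrays correlated at 0.991 to 0.994 within a group (0.979 to 0.986 between groups), and their medians lay between 5.04 and 5.11. Chondrocyte markers were high in both groups, and 8 of 10 fell in Ad-Zip8 cells (80.0%, against 5.12% of all genes), with a median of -0.54. Among them Matn1 fell by 1.14 on the log2 scale (adjusted p = 2.16e-04). The summed log2 level of those 10 markers was 119.2 to 120.5 in Ad-null arrays and 112.1 to 115.0 in Ad-Zip8 arrays. In RNA from whole cultures, fewer cells of a type and less RNA per cell cannot be told apart.

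**Figure D1:**
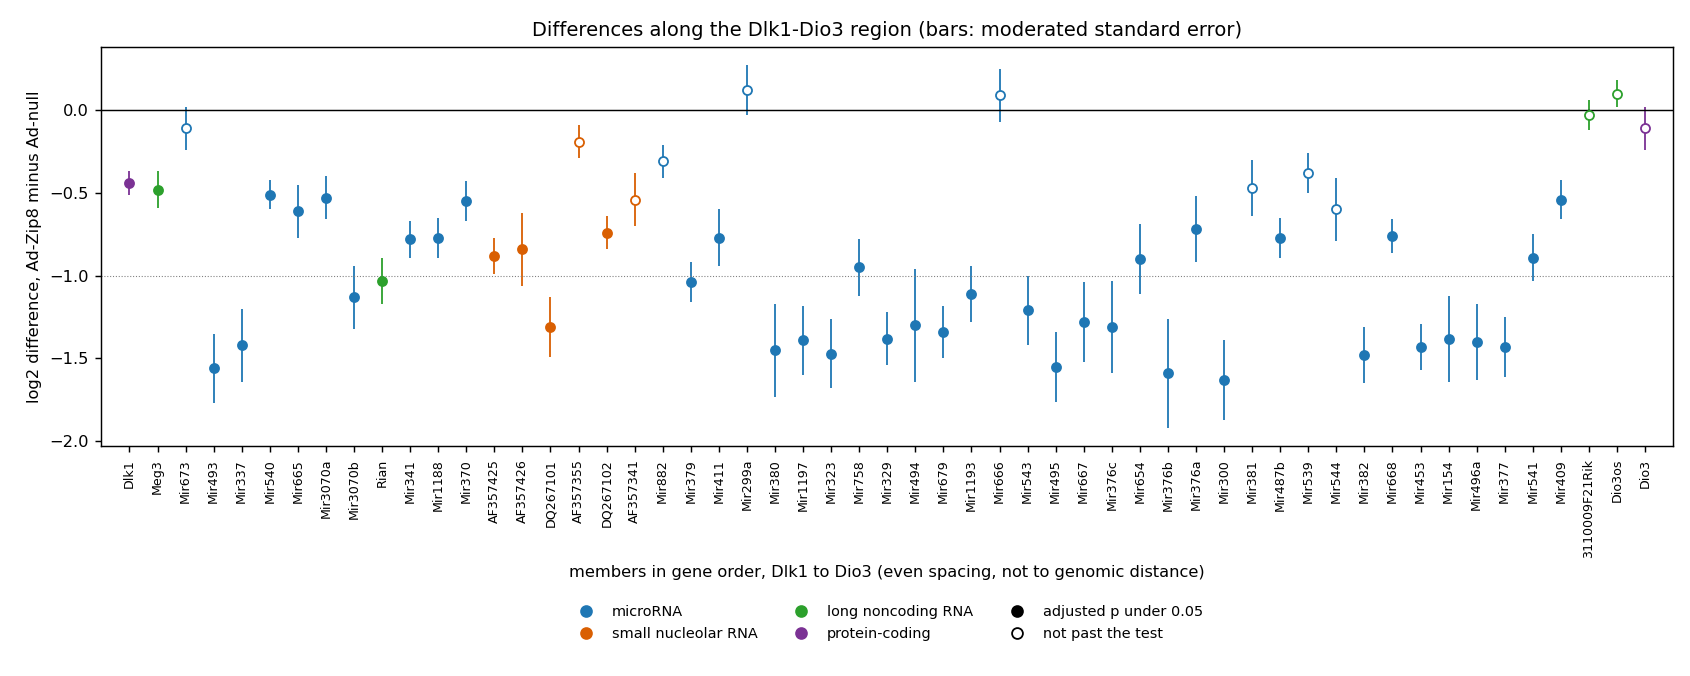
Log2 difference (Ad-Zip8 minus Ad-null, y axis) of each of the 55 members in gene order (x axis), with the moderated standard error as bars, coloured by RNA class and filled where the adjusted p is under 0.05. From Dlk1 to Mir409 nearly all points lie below 0, down to -1.63 at Mir300, and the last 3 members lie between -0.11 and 0.10.

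Dlk1 stands at the first end of the region and encodes a membrane protein of the Notch ligand family that is known to hold back fat cell differentiation. Its log2 levels were 10.57, 10.67, 10.62 and 10.60 with Ad-null and 10.11, 10.29, 10.12 and 10.18 with Ad-Zip8. Every Ad-Zip8 value was below every Ad-null value. The level fell 1.35-fold, from 10.61 ± 0.04 to 10.18 ± 0.08 (SD, n = 4 each), a difference of -0.44 with an SE of 0.07 (adjusted p = 0.00290). Its decrease was the smallest among the 43 members that fell.

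Rian, the long noncoding RNA gene that hosts small nucleolar RNAs and some microRNAs, fell 2.04-fold. Its 4 Ad-null arrays read 10.67, 10.66, 10.50 and 10.32, and its Ad-Zip8 arrays 9.34, 9.80, 9.69 and 9.20. The groups did not overlap, with Ad-Zip8 replicates 1 and 4 lowest. The difference was -1.03 (SE 0.14, adjusted p = 0.00122).

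Meg3, the long noncoding RNA gene whose promoter opens the maternal unit, had a smaller difference than Rian, which was not tested as such: 5.86, 6.10, 6.17 and 6.02 with Ad-null against 5.68, 5.36, 5.76 and 5.44 with Ad-Zip8. The groups did not overlap, and the difference was -0.48 (SE 0.11, adjusted p = 0.0200). Meg3 no longer passed when any 1 of 4 arrays was left out: Ad-null replicate 2 (adjusted p = 0.0562) or 3 (0.0555), Ad-Zip8 replicate 2 (0.0535) or 4 (0.0578). The strand read by this probe set is also in doubt. Its identifier lies in a run of chromosome 12 identifiers in which 88 of 91 probe sets outside the region belong to minus-strand genes, whereas Meg3 is on the plus strand.

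Rtl1 and Mirg had no probe set of their own, and 11 further probe sets each name several genes, all of the region. In a fit over all 41345 probe sets 9 of these 11 fell and none rose (1.86% of all probe sets fell), with a median difference of -1.0 and a range from -1.19 to -0.13. In 9 of the 11 the Ad-Zip8 values lay below all Ad-null values. They are not assigned to genes here.

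**Figure D2:**
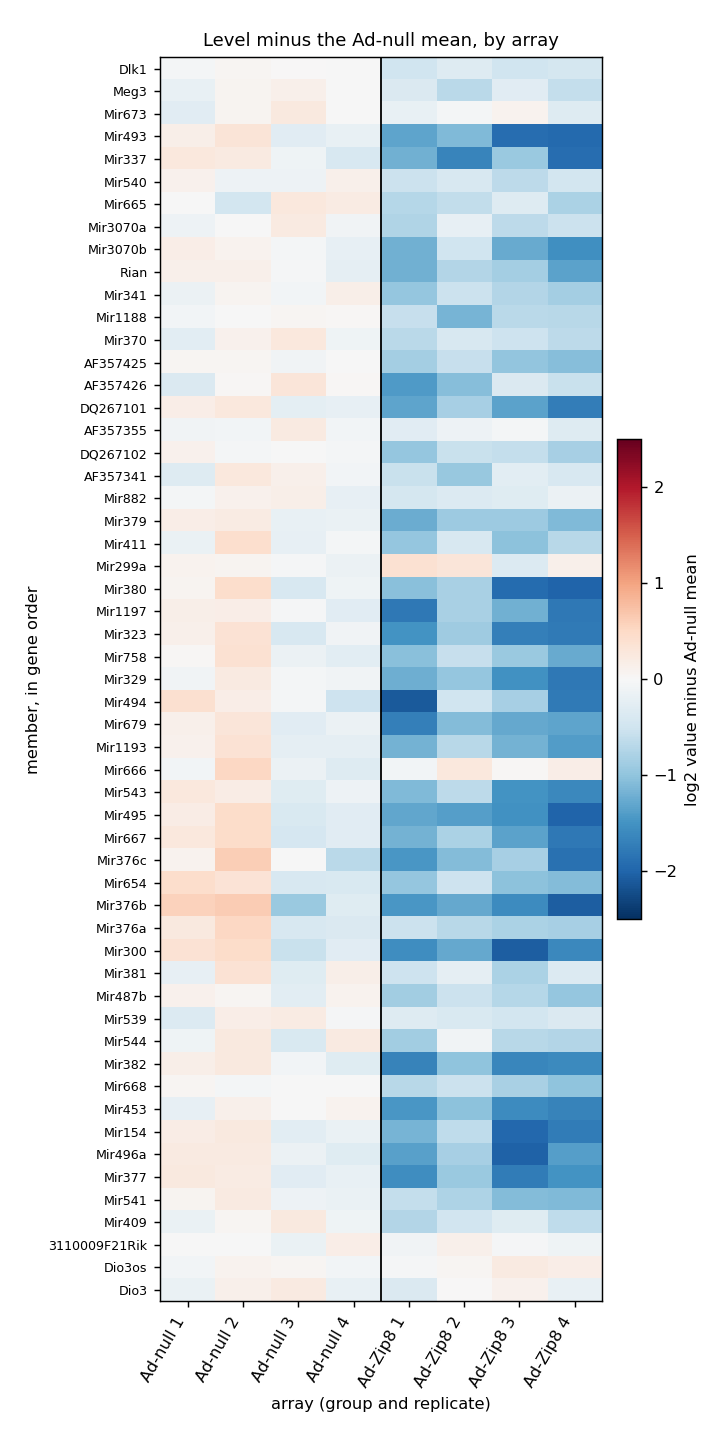
Log2 level minus the Ad-null mean (colour) of the 55 members in gene order (rows) on each of the 8 arrays (columns). Most rows are blue on all 4 Ad-Zip8 arrays, palest on Ad-Zip8 replicate 2, while Mir673, Mir299a, Mir666 and the last 3 rows stay near 0.

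Small nucleolar RNA members, whose genes follow Rian in the gene order, fell in 4 of 6 cases, and all 6 differences were below 0, with a median of -0.79. AF357425 gave 10.82, 10.83, 10.69 and 10.76 with Ad-null and 9.92, 10.19, 9.79 and 9.71 with Ad-Zip8. Its groups were well separated, and it fell 1.84-fold (-0.88, SE 0.11, adjusted p = 5.80e-04). By its brighter probe set DQ267101 had the largest change of the class, 2.47-fold, from 7.76, 7.85, 7.35 and 7.38 down to 6.26, 6.75, 6.24 and 5.85 (adjusted p = 0.00146). Its dimmer probe set was at -0.81 (5.42 ± 0.33 against 4.61 ± 0.29, SD, n = 4 each), a smaller decrease than that of AF357425. In a limma fit over all 41345 probe sets the dimmer one did not pass (adjusted p = 0.0582) and the brighter one did (adjusted p = 0.0071). DQ267102 fell 1.67-fold (adjusted p = 0.00120). AF357426 fell 1.80-fold (adjusted p = 0.0381), but its groups nearly touched at 7.52, and it did not pass without Ad-null array 2, 3 or 4, or Ad-Zip8 array 1 or 2 (adjusted p from 0.0807 to 0.0985).

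AF357355, the member with the highest mean signal, did not pass: its values were 11.14, 11.16, 11.45 and 11.16 with Ad-null and 10.95, 11.10, 11.18 and 10.91 with Ad-Zip8 (adjusted p = 0.283). These ranges overlap. AF357341 (-0.54, adjusted p = 0.0673) also did not pass. Small nucleolar RNA genes of this region are known to occur as near copies, so the split of signal between them is uncertain.

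Elsewhere on the array, 75 small nucleolar RNA genes had a median difference of 0.20, with none passing in either direction (3 higher and 0 lower at an unadjusted p under 0.05). Their median level moved between arrays of the same group. Relative to the Ad-null mean it was -0.04, -0.76, 0.41 and 0.42 on the Ad-null arrays and -0.12, -0.13, 0.55 and 0.60 on the Ad-Zip8 arrays. The 6 small nucleolar RNAs of the region stood at -0.02, 0.04, 0.05 and -0.05 with Ad-null and at -0.92, -0.71, -0.48 and -0.69 with Ad-Zip8. The median of the outside genes thus moved widely among the Ad-null arrays, and the median of the 6 members moved little. Single members differed in this: with Ad-null, AF357426 ran from 7.52 to 8.18 and AF357341 from 3.82 to 4.41, but AF357425 only from 10.69 to 10.83. With arrays centred on the 75 outside genes, the members' median difference was -1.10.

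MicroRNA members fell in 36 of 43 cases (83.7%), and 22 of them fell at least 2-fold. Their median difference was -1.04, a 2.05-fold lower level. The 435 microRNA genes outside the region had a median of 0.03, with 6 lower (1.38%) and 18 higher. Restricted to the 113 outside microRNA genes with a mean log2 level of 5 or more, the median was 0.01 and 3 fell (2.65%). On chromosome 12 outside the region, 15 microRNA genes had a median of 0.08 and none fell (1 rose). A further microRNA cluster, 22 genes inside the imprinted gene Sfmbt2 on chromosome 2, chosen for comparison after the data were seen, had a median of -0.08 with 1 lower.

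**Figure D3:**
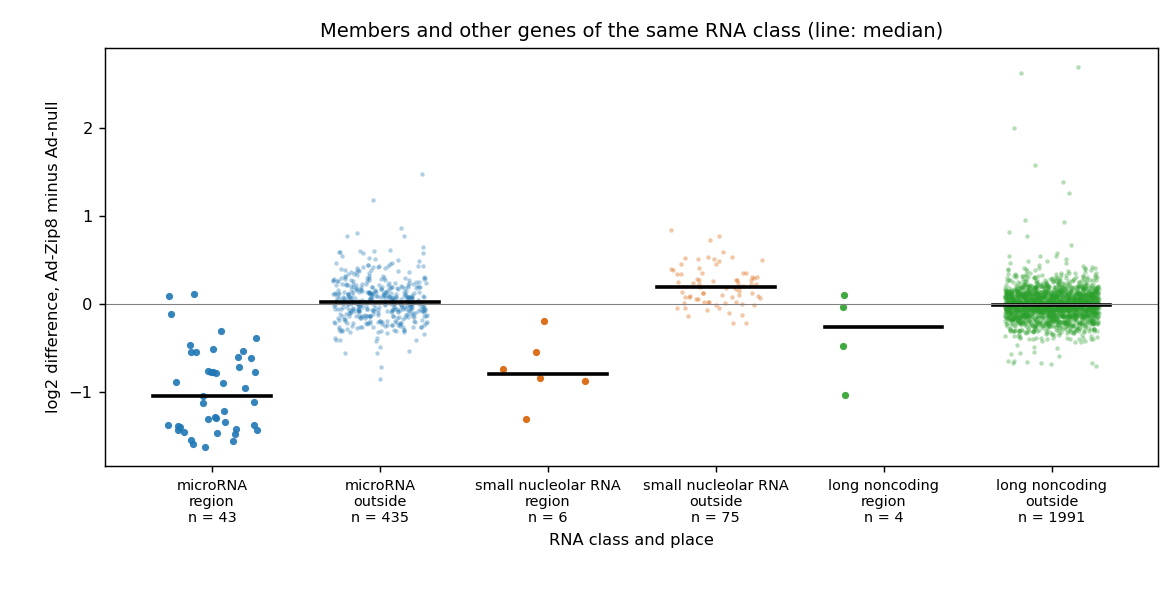
Log2 difference (Ad-Zip8 minus Ad-null, y axis) of each gene, split by RNA class and by place in or outside the Dlk1-Dio3 region (x axis), with the median as a line. The microRNA median is -1.04 for 43 members and 0.03 for 435 others, and the small nucleolar RNA median is -0.79 for 6 members and 0.20 for 75 others.

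Along the gene order the microRNAs formed 3 stretches. Between Meg3 and Rian, 6 of 7 microRNA members fell, with a median difference of -0.61. From Rian to Mir882, microRNAs and small nucleolar RNAs together fell in 7 of 10 cases, with a median of -0.76. From Mir379 to Mir409, the measured part of the long microRNA cluster, 27 of 32 fell, 19 of them at least 2-fold, with a median of -1.24. The difference between the stretches was not tested.

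In the stretch before Rian, Mir493 stood out: it read 7.76, 7.94, 7.33 and 7.43 with Ad-null and 6.29, 6.52, 5.72 and 5.67 with Ad-Zip8, a 2.96-fold decrease (adjusted p = 9.89e-04). Its neighbour Mir337 fell 2.68-fold, from 6.12, 6.08, 5.75 and 5.46 to 4.66, 4.20, 4.92 and 3.95 (adjusted p = 0.00254). For both genes the groups were well apart. Mir3070b fell 2.18-fold, and smaller decreases were found for Mir3070a (-0.53), Mir540 (-0.51) and Mir665 (-0.61, with overlapping groups). Hairpins of Mir3070a and Mir3070b are 94.4% identical, so their values are uncertain between them. Mir673, the first microRNA measured in the stretch, did not pass (-0.11, SE 0.13, adjusted p = 0.665), with overlapping ranges of 7.04 to 7.57 and 7.01 to 7.42.

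In the second stretch, Mir341 fell 1.71-fold (adjusted p = 0.00134), Mir1188 1.71-fold (adjusted p = 0.00286) and Mir370 1.47-fold (adjusted p = 0.0166). The groups did not overlap for any of these. Mir882, at a mean log2 signal of 2.85, was at -0.31 and did not pass (adjusted p = 0.0902).

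The long cluster opened with Mir379, which read 5.00, 5.04, 4.64 and 4.66 with Ad-null against 3.59, 3.93, 3.93 and 3.74 with Ad-Zip8. That is a 2.05-fold decrease (adjusted p = 4.88e-04) with no overlap. In neurons this cluster is known to be transcribed together under the control of MEF2 transcription factors. Mir329, whose probe set had the highest mean signal of the microRNA members, fell 2.60-fold, from 8.92, 9.22, 8.95 and 8.92 to 7.78, 8.04, 7.48 and 7.21 (adjusted p = 5.32e-04). Mir667, at 8.88 ± 0.42 against 7.61 ± 0.41 (SD, n = 4 each), fell 2.42-fold.

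The 3 largest microRNA differences belonged to Mir300, Mir376b and Mir493. Mir300 had 7.83, 7.93, 6.92 and 7.19 with Ad-null and 5.92, 6.18, 5.40 and 5.86 with Ad-Zip8, a 3.09-fold decrease (-1.63, SE 0.24, adjusted p = 0.00181). Its Ad-null replicates 1 and 2 were higher than replicates 3 and 4, and all 4 exceeded the Ad-Zip8 values. Mir376b showed the same unevenness, with 6.13, 6.19, 4.63 and 5.25 against 4.09, 4.27, 3.98 and 3.49, a 3.01-fold decrease (adjusted p = 0.0120). The groups did not overlap, though Ad-null replicate 3 came close to the Ad-Zip8 values. Mir376c fell 2.47-fold and Mir376a 1.64-fold, at mean signals over the arrays of 3.85 and 2.74. Hairpins of Mir376b and Mir376c are 82.6% identical, and how far they share signal was not tested.

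Mir453 had the smallest adjusted p of all members. It read 8.43, 8.77, 8.63 and 8.74 with Ad-null and 7.18, 7.62, 7.07 and 6.98 with Ad-Zip8, a difference of -1.43 (SE 0.14, adjusted p = 1.58e-04). The gap between the groups exceeded the spread within either of them. Mir382 went from 8.11, 8.21, 7.90 and 7.66 to 6.30, 6.97, 6.33 and 6.38, a 2.78-fold decrease (adjusted p = 4.07e-04). Mir679, which lies between Mir494 and Mir1193, fell 2.54-fold (adjusted p = 4.66e-04).

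**Figure D4:**
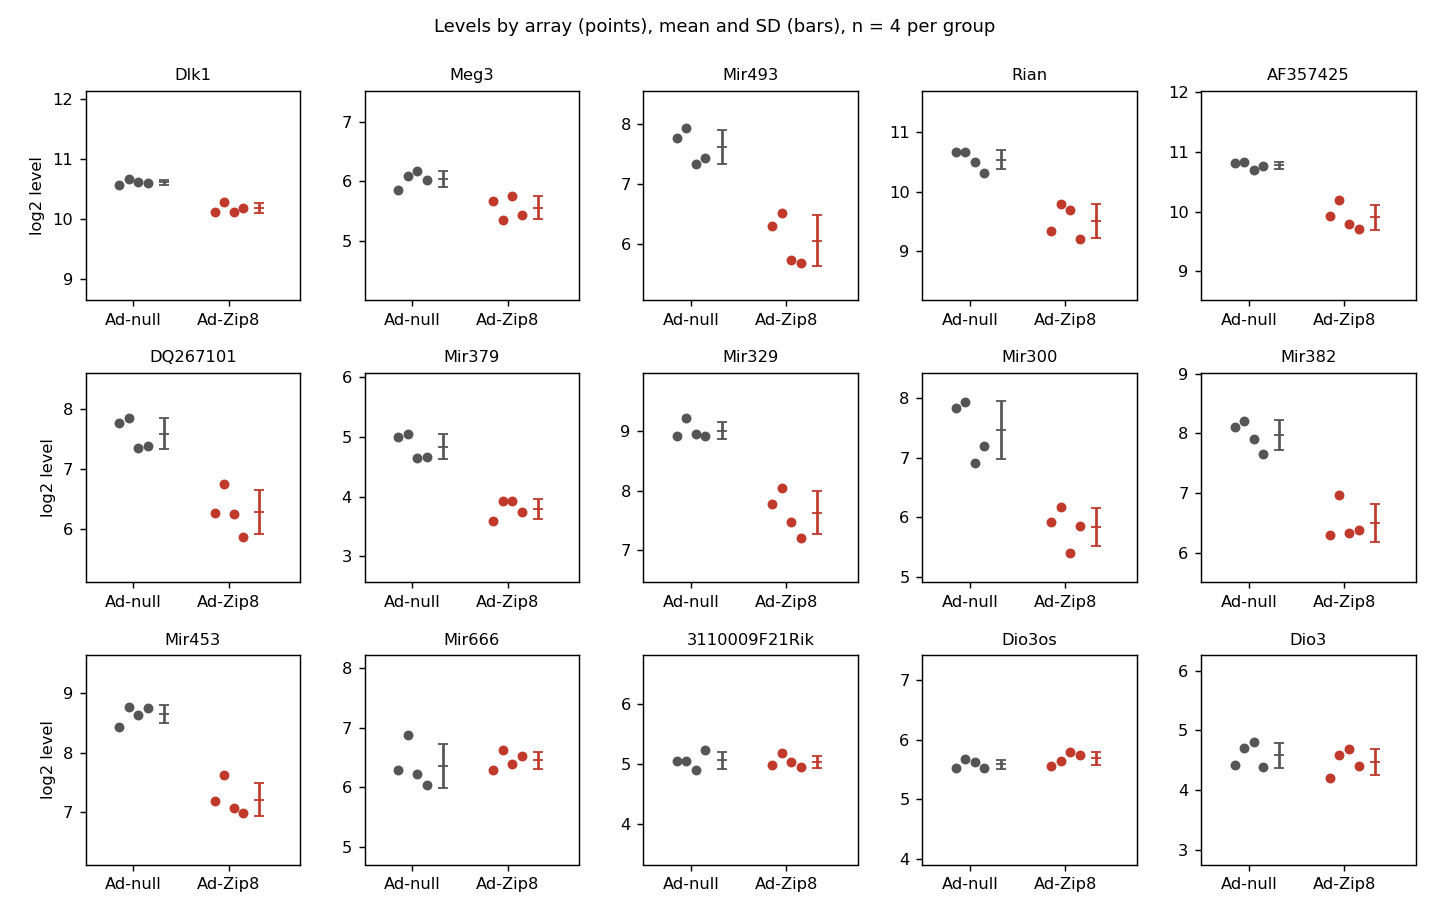
Log2 level (y axis) on each array for 15 members, Ad-null in grey and Ad-Zip8 in red (x axis), with mean and SD as bars (n = 4 per group); all panels span the same range of log2 units. Groups are apart for Dlk1, Meg3, Rian, 2 small nucleolar RNAs and 6 microRNAs, and overlap for Mir666, 3110009F21Rik, Dio3os and Dio3.

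Other members of the long cluster with at least 2-fold decreases were Mir495 (2.93-fold), Mir323 (2.77-fold), Mir380 (2.74-fold), Mir377 (2.69-fold), Mir496a (2.64-fold), Mir1197 (2.62-fold), Mir154 (2.60-fold), Mir494 (2.46-fold), Mir543 (2.31-fold) and Mir1193 (2.16-fold). Their adjusted p-values ran from 8.30e-04 for Mir377 to 0.0364 for Mir494, the one among these 10 whose groups overlapped. Smaller decreases were found for Mir758, Mir654, Mir541, Mir411, Mir487b, Mir668 and Mir409, from 1.93-fold down to 1.46-fold.

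Several microRNA calls did not hold when 1 array was left out. Leaving out 1 array also lowered the count of genes that fell over the whole array, from 1136 to between 708 and 923. Without Ad-Zip8 replicate 1, Mir409, Mir370, Mir411, Mir654, Mir3070a, Mir376a, Mir494 and Mir665 no longer passed, with adjusted p-values from 0.0516 for Mir409 to 0.107 for Mir665. Mir665 was also lost without Ad-null array 1, 3 or 4, or Ad-Zip8 array 2 or 4 (adjusted p from 0.0843 to 0.108), and Mir3070a without Ad-null array 2 or 3, or Ad-Zip8 array 3 or 4 (from 0.0558 to 0.0660). Mir494 was lost without Ad-null array 1, 2 or 3, or Ad-Zip8 array 4 (from 0.0761 to 0.102). The call of Mir654 ended without Ad-null array 1 or 2, or Ad-Zip8 array 3 or 4 (from 0.0601 to 0.0635), and that of Mir376a without Ad-null array 1 or 2, or Ad-Zip8 array 2, 3 or 4 (from 0.0797 to 0.123). Their differences stayed below 0 in all of these fits.

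The other 5 measured genes of the long cluster, Mir299a, Mir666, Mir381, Mir539 and Mir544, did not pass. Mir666 read 6.29, 6.88, 6.22 and 6.04 against 6.29, 6.62, 6.39 and 6.52, with full overlap (0.09, SE 0.16, adjusted p = 0.801). It lies between Mir1193 and Mir543, both at least 2-fold lower. Mir381 (-0.47), Mir539 (-0.38) and Mir544 (-0.60) had differences below 0 with adjusted p-values of 0.117, 0.0723 and 0.0823. With the replicate number as a block in the limma fit, Mir381 (adjusted p = 0.0103) and Mir544 (adjusted p = 0.0326) passed as lower, which brought the members that fell to 45.

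Mir299a had a difference of 0.12 by its brighter probe set (4.84 ± 0.11 against 4.96 ± 0.32, SD, n = 4 each) and of -0.45 by its dimmer one (3.24 ± 0.38 against 2.80 ± 0.35). The brighter probe set is, like that of Meg3, in the identifier run of minus-strand genes, while Mir299a is on the plus strand. Mir380, Mir376a and Mir409 also had a further probe set in that run, with differences of -0.06, -0.03 and -0.38, each smaller than that of the probe set kept. A use of only the probe sets in the run of the gene's own strand, chosen after the data were seen, left 54 members, of which 42 fell.

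The 14 members with a mean log2 level under 5 had a median difference of -0.66 and 8 fell, and the 41 members at 5 or above had a median of -0.90 and 35 fell. By array, the median of all members relative to the Ad-null mean was -0.97, -0.64, -0.83 and -1.07 on Ad-Zip8 replicates 1 to 4, against 0.07, 0.18, -0.09 and -0.13 on the Ad-null arrays. Ad-Zip8 replicate 2 thus showed the smallest shift, and no Ad-Zip8 array came near an Ad-null array. All genes had per-array medians from -0.03 to 0.01 on the same scale.

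At the Dio3 end of the region no member passed the test. Dio3, which encodes the deiodinase that inactivates thyroid hormone, read 4.42, 4.71, 4.80 and 4.39 with Ad-null and 4.21, 4.58, 4.69 and 4.40 with Ad-Zip8. These ranges overlap in part, with Ad-null replicates 2 and 3 above every Ad-Zip8 value (-0.11, SE 0.13, adjusted p = 0.682). Its antisense partner Dio3os stood at 5.58 ± 0.08 and 5.69 ± 0.11 (SD, n = 4 each, adjusted p = 0.516). The noncoding gene 3110009F21Rik, between Mir409 and Dio3os, stood at 5.07 ± 0.14 and 5.04 ± 0.11 (adjusted p = 0.899). Dio3 and 3110009F21Rik were close to or below the array medians. Dio3 and Dio3os overlap or lie side by side on opposite strands, and how far their probes separate the strands was not tested.

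Just outside the limits of the region, none of the nearest measured genes passed the test. Before Dlk1, Begain was at -0.21 (adjusted p = 0.365), Wdr25 at -0.20 (0.226) and Wars at -0.24 (0.0721). For Wdr25 and Wars every Ad-Zip8 value lay below every Ad-null value, which held for 9.74% of all genes. After Dio3, Ppp2r5c was at -0.05, Gm19605 at 0.03 and B930059L03Rik at -0.05. Just inside, Dlk1 and Meg3 were at -0.44 and -0.48, and Dio3os and Dio3 at 0.10 and -0.11. Over the 703 other genes of chromosome 12 the median was -0.02, and 38 fell and 38 rose.

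Promoters of 3 members are shown because Dlk1 and Meg3, known to be read from opposite parental chromosomes, fell while Dio3 did not pass: the 300 bases around each RefSeq start, from 250 before it to 50 after. Capitals mark every match to 3 motifs searched on both strands: the metal response element core (TGCACNC or TGCGCNC), the cAMP response element (TGACGTCA) and the TATA box (TATAAA), whose matches may overlap. Positions are chr12:109540746-109541045 for the first of 2 Meg3 starts, chr12:109452573-109452872 for Dlk1 and chr12:110278980-110279279 for Dio3, all on the plus strand of GRCm38.p6.
Meg3 promoter: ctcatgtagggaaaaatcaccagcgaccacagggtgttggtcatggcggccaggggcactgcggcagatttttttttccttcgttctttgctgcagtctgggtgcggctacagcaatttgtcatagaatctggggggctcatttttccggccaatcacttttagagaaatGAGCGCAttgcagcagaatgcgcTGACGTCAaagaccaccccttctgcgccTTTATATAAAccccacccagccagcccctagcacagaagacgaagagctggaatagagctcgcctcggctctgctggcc
Dlk1 promoter: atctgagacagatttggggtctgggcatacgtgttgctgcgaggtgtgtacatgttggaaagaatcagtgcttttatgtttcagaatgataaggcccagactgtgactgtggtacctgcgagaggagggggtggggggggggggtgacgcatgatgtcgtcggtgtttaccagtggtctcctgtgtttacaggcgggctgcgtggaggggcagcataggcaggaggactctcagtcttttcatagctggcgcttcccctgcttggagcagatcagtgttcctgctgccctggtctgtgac
Dio3 promoter: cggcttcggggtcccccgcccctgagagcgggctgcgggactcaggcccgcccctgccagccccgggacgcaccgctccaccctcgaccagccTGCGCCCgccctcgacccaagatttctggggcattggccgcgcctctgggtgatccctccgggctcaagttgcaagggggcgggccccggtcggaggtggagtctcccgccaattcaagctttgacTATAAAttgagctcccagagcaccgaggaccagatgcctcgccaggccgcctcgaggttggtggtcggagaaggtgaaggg

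The printed Meg3 window held 1 match to the metal response element core, 1 to the cAMP response element and 2 overlapping matches to the TATA box. The window of the second Meg3 start (chr12:109545148-109545447, not printed) held no match to any of the 3. The Dio3 window held 1 metal response element core and 1 TATA box, and the Dlk1 window held no match to these letters. Of 32851 RefSeq promoter windows of this length, 25.7% held the metal response element core, 1.79% the cAMP response element and 13.6% the TATA box. A match is a description of letters and was not tested for binding.

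Genes listed as imprinted elsewhere in the genome were taken for comparison, and whether each is imprinted in these cells was not tested. Of 42 measured genes of that list, 15 fell (35.7%, against 5.12% of all genes), 26 did not pass and 1 rose. Their median difference was -0.16. Cdkn1c, which encodes a cyclin-dependent kinase inhibitor, fell 2.26-fold, from 10.53, 10.76, 10.41 and 10.47 to 9.14, 9.64, 9.30 and 9.39 (adjusted p = 1.78e-04). Phlda2 fell 1.70-fold (adjusted p = 9.33e-04) and Cobl 1.78-fold (adjusted p = 7.08e-05). Dcn, which encodes the matrix proteoglycan decorin, was the gene that rose (1.63-fold). Igf2 (-0.20, adjusted p = 0.122) and Mest (0.00, adjusted p = 0.984) did not pass, at mean log2 levels of 12.92 and 12.67.

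**Figure D5:**
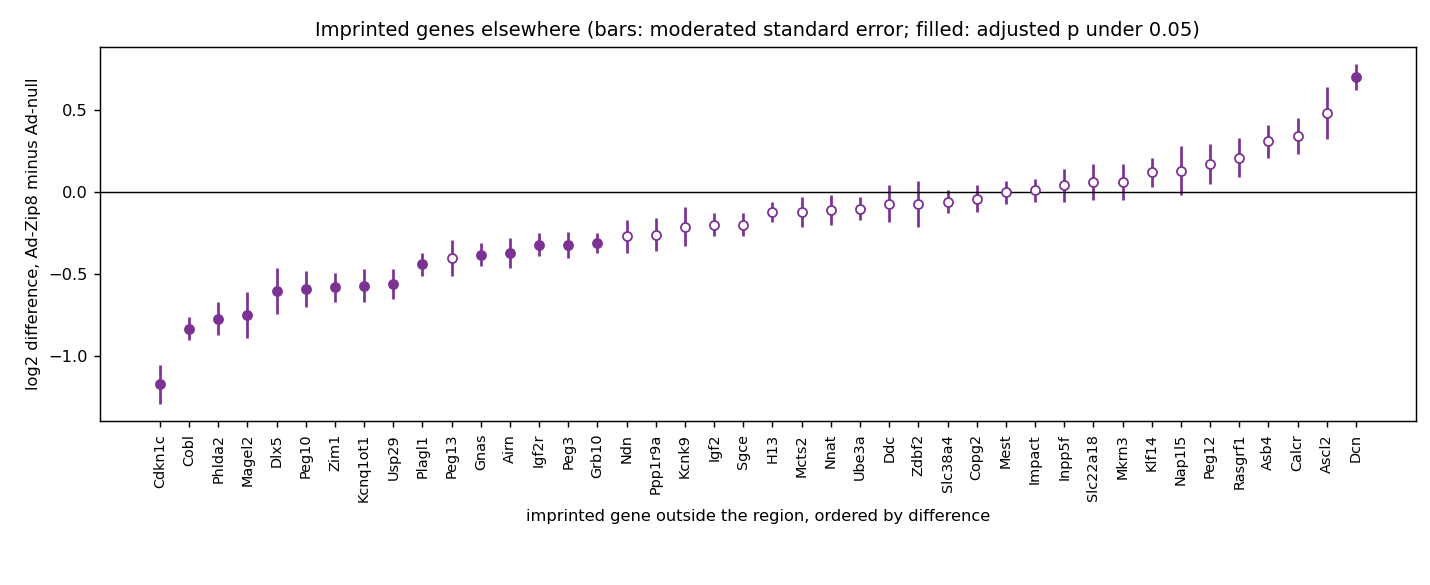
Log2 difference (Ad-Zip8 minus Ad-null, y axis) of the 42 measured genes listed as imprinted outside the region (x axis, ordered by difference). Bars are the moderated standard error, and filled points have an adjusted p under 0.05. Cdkn1c is lowest at -1.17, Dcn highest at 0.70, and 15 filled points lie below 0.

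Factors that set or keep imprints and DNA methylation were measured through 20 genes, of which 1 fell (5.0%, against 5.12% of all genes) and 3 rose (against 5.48% of all genes). Aff3, known to bind the control regions of the Dlk1-Dio3 region, fell 1.87-fold, from 8.93, 8.91, 8.86 and 8.93 to 7.87, 8.08, 8.07 and 7.99 (adjusted p = 5.25e-05). Those that rose were Uhrf1 (1.89-fold), which guides maintenance methylation, the polycomb methyltransferase gene Ezh2 (1.34-fold) and the maintenance methyltransferase gene Dnmt1 (1.31-fold).

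Genes that process small RNAs were read from lists. Of 18 microRNA processing genes 1 fell (5.56%, near the 5.12% of all genes) and none rose. This was Dicer1, whose product cuts hairpins into mature arms, at 1.28-fold lower (adjusted p = 0.0268), and the median was -0.06. No gene of the 9 that serve box C/D small nucleolar RNAs passed, with a median of -0.16. Of their differences 8 were below 0, beside 11994 of all 22180 genes. At an unadjusted p under 0.05, 2 were lower and 0 higher, and the share of all genes at that threshold was not counted.

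Partners of the region's proteins included calls in both directions, beside 5.12% lower and 5.48% higher among all genes. Among 18 genes of Dlk1 and Notch signalling, the protease gene Adam17 (1.76-fold), the transcription factor gene Rbpj (1.47-fold) and the ligand gene Jag1 (1.30-fold) rose, and the receptor gene Notch1 fell 1.24-fold. Of 13 thyroid hormone genes, the receptor genes Thra (1.24-fold) and Thrb (1.39-fold) fell and the transporter gene Slc16a10 rose 1.69-fold.

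Other cell types that the cultures could hold were checked by their markers, beside 5.12% lower and 5.48% higher among all genes. Of 8 skeletal muscle markers 1 fell (Acta1, 1.42-fold) and none rose, with a summed log2 level of 47.3 to 48.5 in Ad-null and 46.3 to 47.5 in Ad-Zip8 arrays. Of 7 fat cell markers 3 rose, Fabp4 most (6.87-fold), with Cebpa (1.38-fold) and Adipoq (1.27-fold), and none fell. At an unadjusted p under 0.05, 2 of the 7 were lower, Pparg and Zfp423 (each -0.27), and 3 were higher. The summed log2 level of the 7 was 37.9 to 40.0 in Ad-null and 41.5 to 43.6 in Ad-Zip8 arrays. Much of that rise came from Fabp4, at 4.12 ± 0.84 with Ad-null and 6.90 ± 0.35 with Ad-Zip8 (SD, n = 4 each). Fibroblast markers had 1 of 6 higher (Pdgfra, 0.86), macrophage markers 1 of 6 (Cd68) and endothelial markers 0 of 5, and no marker of these 3 lists fell. At an unadjusted p under 0.05, 1 fibroblast marker and 0 macrophage markers were lower, and none of the 5 endothelial markers passed in either direction. The fibroblast marker Dpt had the largest difference of its list, -0.93, with overlapping groups (adjusted p = 0.139). The summed levels in Ad-null and Ad-Zip8 arrays were 43.4 to 46.1 and 44.1 to 45.8 for fibroblasts, 27.6 to 28.5 and 28.6 to 28.9 for macrophages, and 22.8 to 23.6 and 23.3 to 23.8 for endothelium. The part of any cell type in the decrease was not tested.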

How the data were processed

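The deposited table holds log2 signals, 1 for each probe set on each array. The submitters' processing notes name RMA, a method that subtracts background, equalises the distributions of arrays and combines probes. No version, array build or filter was given with it. Labelling used a biotin whole-transcript kit, per the labels' protocols. Values ran from 0.85 to 13.8, and no detection calls or scanner files were used, so no gene is called absent. Precision is limited by having 4 arrays a group.

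Of 41345 probe sets, 23521 named 1 gene, 1814 several and 16010 none. The probe set with the highest mean over 8 arrays was kept for each of 22180 genes. Genes were matched to the RefSeq table (GRCm38.p6) by Entrez identifier, and 1 member (AF357341) by symbol. Ad-Zip8 was compared with Ad-null in limma 3.58.1 (R 4.3.3; lmFit, eBayes, two-sided, no covariate, no filter), with Benjamini-Hochberg adjustment over all 22180 genes and a threshold of 0.05. The script was tested on simulated data. SE is limma's moderated standard error.

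Members and gene lists were chosen with earlier results of these data known. Named were Dlk1, Meg3, Rian and Dio3, every member past the threshold, the brightest and most changed of each RNA class, the 3 neighbours on each side and up to 4 called genes per list; members that did not pass, Igf2, Mest and the outside microRNAs that fell were named after their values were seen. Rtl1 and Mirg had no probe set of their own. Same-numbered replicates tended to deviate together (correlations from 0.108 to 0.374, against -0.271 to 0.155 for other pairs). This did not hold for Ad-Zip8 replicate 1, which correlated more with Ad-null replicate 2 (0.155) than with Ad-null replicate 1 (0.108). An alternative fit used the replicate number as a block, a pairing inferred from the data. Alternatives were the replicate block, a minimum mean level of 5, a variance trend, re-scaling, other probe set rules and leaving out each array.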

Additional observations from a re-analysis of the deposited data

Results flagged for a closer look

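In 4 of the members, 1 array of a group of 4 stood far from the other 3, by the ratio of its gap to the group's range; chance alone gives about 1 such case in 20 groups, and 55 members in 2 groups were examined. AF357355 read 11.45 on Ad-null replicate 3 against 11.14 to 11.16 on the others. Mir329 read 9.22 on Ad-null replicate 2 against 8.92 to 8.95. Mir487b read 5.65 on Ad-null replicate 3 against 5.97 to 6.02. Mir382 read 6.97 on Ad-Zip8 replicate 2, against 6.30 to 6.38 on the other Ad-Zip8 arrays.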

How the results depend on the processing

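Between 33 and 45 members fell under every alternative run (43 as reported), and none rose in any of them. The count was 45 with the replicate block, 44 with a variance trend, 43 after repeated quantile normalization, 42 with arrays centred on their medians or with probe sets averaged, 36 of 41 after dim genes were left out (1569 of 13688 genes fell in that fit), 33 when all probe sets were tested, and 34 to 41 with 1 array left out. Median differences of the members lay between -0.93 and -0.81 with 1 array left out, those of microRNAs between -1.10 and -0.97 and those of small nucleolar RNAs between -0.81 and -0.66; the last was -1.10 with arrays centred on outside small nucleolar RNAs. Over all genes, 1136 fell as reported, 1621 with a variance trend, 614 when all probe sets were tested, and 708 to 923 with 1 array left out (924 to 1119 rose), fewest without Ad-Zip8 replicate 1 (708) and Ad-null replicate 1 (721). Of the 43 decreases, 33 passed in every alternative; Meg3, Mir665, Mir3070a, Mir370, AF357426, Mir411, Mir494, Mir654, Mir376a and Mir409 did not, all 10 of them being lost when all probe sets were tested (adjusted p up to 0.113), and Mir376a also with averaged probe sets (adjusted p = 0.128). Without Ad-Zip8 replicate 1 these other than Meg3 were lost. Mir299a turned to -0.16 with probe sets averaged and -0.45 with the probe set of its own strand run. With 1 array left out, Mir666 ran from -0.01 to 0.27 and 3110009F21Rik from -0.08 to 0.03, neither past the test. Mir381 (adjusted p = 0.0103) and Mir544 (0.0326) passed as lower with the replicate block, which ended no call of a member; Mir539, Mir544 and AF357341 passed as lower in 2 or 3 alternatives each. When all probe sets were tested, each member kept its probe set and difference, and only limma's variance moderation and the adjustment ran over all 41345 probe sets. The cause of the other shifts was not tested. Without detection calls, signal over background was not tested.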

Other observations

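Of the MEF2 transcription factor genes, which were looked up after the data were seen, Mef2c fell 1.72-fold, from 8.22, 8.19, 7.99 and 7.81 with Ad-null to 7.29, 7.17, 7.31 and 7.31 with Ad-Zip8 (limma adjusted p = 7.62e-04). Mef2a (0.12, adjusted p = 0.425) and Mef2d (-0.13, adjusted p = 0.579) did not pass. Whether Mef2c bears on the microRNA cluster was not tested.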
